A study of Mus musculus with 4 samples.

Results

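The genes described here encode the enzymes that build cholesterol and fatty acids and the proteins that set the amount of those enzymes. They were chosen by symbol, and each of the 32 listed symbols matched a row among the 24771 features with a value. The list holds 17 enzymes of the sterol pathway, 6 genes for regulation and transfer of sterols, and 9 enzymes of fatty acid synthesis and desaturation. Expression was measured in 2 samples of PSC-derived SG placodes and 2 samples of mouse SMGs. The placodes were aggregates grown from 1 mouse embryonic stem cell (mESC) line and harvested on day 10. They were seeded at 3000 cells per well, kept with 2% Matrigel in a medium with serum replacement, given BMP4 (2 ng/ml) on day 3 and both bFGF (25 ng/ml) and RA (1 μM) on day 4, and moved to FGF10 (200 ng/ml) on day 6. The SMGs were submandibular glands of mouse embryos at E12.5, and neither their strain, the number of embryos per sample nor the dissection is given in the sources used here. No genetic change is named for either group, and the labels call all samples untreated. The placodes stand for 1 cell line, and nothing states that the samples of a group came from separate cultures or litters, so p-values measure the spread between these samples, which may be technical.

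Cholesterol is made from acetyl-CoA by way of mevalonate, squalene and lanosterol, and the same acetyl-CoA, released from citrate in the cytosol, is the unit from which fatty acids are built. Both pathways are switched on by SREBP transcription factors, which are held in the endoplasmic reticulum by INSIG proteins when sterols are plentiful and are carried to the Golgi by the escort protein SCAP when sterols are scarce. Cholesterol is a component of every animal cell membrane and is attached to hedgehog ligands in the embryo, and the developing brain makes its own supply.

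All values are FPKM, which scales the fragments counted for a gene by the length of its transcript and by the size of the library, so that levels can be compared between genes. The FPKM summed to between 361963 and 384773 per sample, and the depth behind them is unknown. Lists of cell type markers separated the groups widely. The summed FPKM of 10 neural markers was 1444 to 1509 in the placodes and 120.0 to 134 in the SMGs, with 10 of 10 higher in the placodes. Markers of salivary and oral epithelium summed to 73.4 to 80.2 in the placodes and 604 to 635 in the SMGs, with 7 of 10 lower and 1 (Krt19) higher, and Krt5, Krt14 and Krt15 were listed at 0 in both placode samples. The 8 mesenchyme markers summed to 200.0 to 205 and 1868 to 1917, the 8 erythroid markers to 0.224 to 0.399 and 2932 to 2946, and the 8 markers of cycling cells to 214 to 222 and 394 to 415, in placodes and SMGs respectively. All 8 mesenchyme markers, all 8 cycling markers and the 6 erythroid markers that could be tested were lower in the placodes. Endothelial markers (9.20 to 9.75 and 101 to 107), macrophage markers (2.50 to 2.95 and 17.5 to 19.4) and oligodendrocyte markers (15.1 to 15.5 and 26.5 to 28.8) also had lower sums in the placodes, and 6 adipocyte markers reached at most 0.390 in the placodes and 1.96 in the SMGs. The part of these differences in the lipid gene results was not tested, and in bulk samples fewer cells of a type and less RNA per cell cannot be told apart. Culture and embryo, and any batch that follows the groups, cannot be told apart from the comparison either.

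The comparison asks how the lipid synthesis program of the placodes stands against that of the embryonic gland they are meant to model. Most members were higher in the placodes. Of the 32 members, all tested because their mean FPKM reached 1, 27 were higher and 2 were lower at an adjusted p below 0.05 (limma on log2(FPKM + 1), Benjamini-Hochberg over 13193 features). Over all features tested 76.2% passed this threshold, 35.7% higher and 40.4% lower, whereas the members stood at 90.6% in all, 84.4% higher and 6.25% lower. A rise of at least 2-fold, a log2 fold change of at least 1, was found for 15 members, beside 14.1% of all features, and a fall of that size for 1 member, beside 15.2%. The median log2 fold change of the members was 0.93, and that of all tested features was -0.05. No member changed sign under 4 other scalings of the samples. Both placode samples were above both SMG samples for 27 members, beside 41.6% of all features. Both were below for Scap, Srebf1 and Ebp, and the groups overlapped for Mvk and Fasn. The replicates were close to each other, with a median absolute log2 difference over the members of 0.070 in the placodes and 0.124 in the SMGs.

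**Figure D1:**
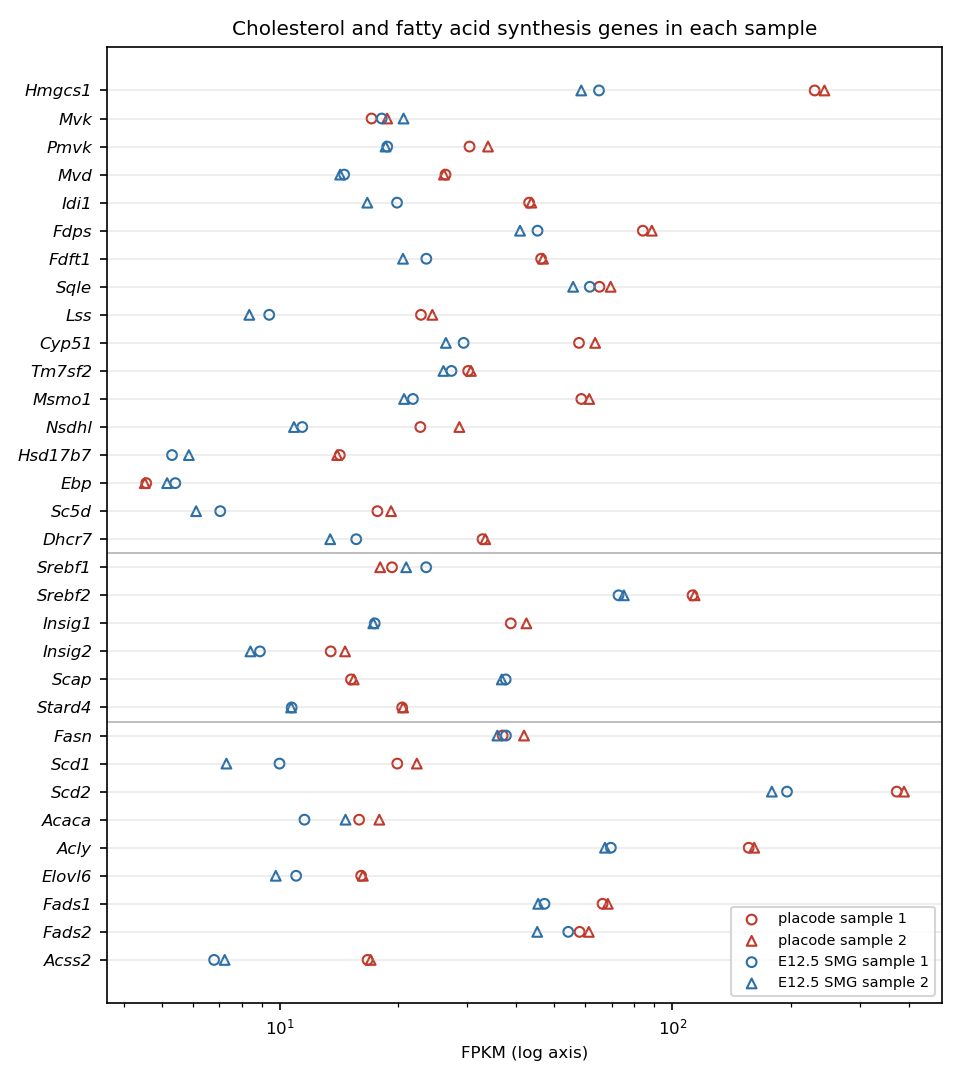
FPKM of each of the 32 members on a log axis, 1 point per sample, with the placode and SMG samples in different colours and members ordered by role. Placode points lie to the right of SMG points for 27 members and to the left for 3, of which Scap has the widest gap, and the points of Mvk and Fasn overlap.

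SREBP is known to bind a sterol element that often lies near a CCAAT box, the site of the factor NF-Y, and the promoters of the members were searched for these letters. Promoter windows from 250 bases before to 50 bases after the RefSeq start (GRCm38.p6) were found for 25 members. No window was matched for Sqle, Scd2, Fdft1, Scd1, Fdps, Stard4 and Fads1. The 4 windows below belong to the most raised sterol enzyme, the most raised regulator, the fatty acid enzyme with the lowest adjusted p, and the only member that fell by more than 2-fold. Each is printed 5′ to 3′ on the strand of its gene, with capitals marking CCAAT or the sterol element core TCACCC on either strand. Hmgcs1 lies at chr13:119690101-119690400 on the plus strand, Insig1 at chr5:28071162-28071461 on the plus strand, Acly at chr11:100527951-100528250 on the minus strand, and Scap at chr9:110333038-110333337 on the plus strand.
Hmgcs1: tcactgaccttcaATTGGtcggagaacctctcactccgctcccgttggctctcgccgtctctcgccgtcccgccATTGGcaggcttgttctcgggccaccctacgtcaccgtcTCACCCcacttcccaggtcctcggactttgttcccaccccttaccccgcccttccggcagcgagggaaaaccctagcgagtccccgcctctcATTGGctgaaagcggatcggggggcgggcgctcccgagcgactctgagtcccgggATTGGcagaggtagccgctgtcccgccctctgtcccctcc
Insig1: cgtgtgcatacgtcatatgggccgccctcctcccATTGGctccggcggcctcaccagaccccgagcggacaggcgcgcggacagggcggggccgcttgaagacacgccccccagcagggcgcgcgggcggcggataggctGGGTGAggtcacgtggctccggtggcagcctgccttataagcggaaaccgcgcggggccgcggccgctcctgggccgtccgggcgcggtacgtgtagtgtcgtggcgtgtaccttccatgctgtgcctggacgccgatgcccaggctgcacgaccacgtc
Acly: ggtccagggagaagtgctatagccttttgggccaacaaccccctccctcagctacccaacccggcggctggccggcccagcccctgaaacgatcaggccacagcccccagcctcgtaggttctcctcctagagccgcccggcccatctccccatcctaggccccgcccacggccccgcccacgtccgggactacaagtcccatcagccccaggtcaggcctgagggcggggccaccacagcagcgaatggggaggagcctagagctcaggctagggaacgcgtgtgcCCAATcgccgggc
Scap: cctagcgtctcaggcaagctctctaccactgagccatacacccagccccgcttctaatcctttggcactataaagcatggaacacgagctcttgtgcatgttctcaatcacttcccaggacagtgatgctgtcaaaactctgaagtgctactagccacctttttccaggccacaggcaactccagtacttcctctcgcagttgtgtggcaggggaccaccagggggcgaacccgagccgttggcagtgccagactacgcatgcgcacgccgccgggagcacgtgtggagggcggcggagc

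The Hmgcs1 window held 4 CCAAT boxes and 1 sterol element core, the Insig1 window 1 of each, and the Acly window 1 CCAAT box. The Scap window shown held neither, and neither did a second RefSeq window of that gene. Over the 25 members with a window, 21 held CCAAT on either strand (84.0%), compared with 41.1% of 27025 genes in the RefSeq table and 43.4% of the 9928 tested genes found there. The 4 members without it were Acaca, Elovl6 and Fads2, which were called higher, and Scap, which was called lower. Members with it included Mvk, Ebp and Fasn, which missed the threshold, and Srebf1, which was called lower. The core TCACCC was found in 9 members (36.0%), Fasn and Srebf1 among them, compared with 18.1% of all genes and 19.6% of tested genes. Its longer form TCACCCCAC, which contains the core, was found in 1 member, Hmgcs1, at position -137 from the start site, and in 0.614% of all genes. The E-box CACGTG was in 5 members (20.0%; Dhcr7, Hsd17b7, Insig1, Sc5d and Scap) and in 11.7% of tested genes. The GC box GGGCGG was in 21 members (84.0%) and in 71.0% of tested genes. A match describes these letters in this window and is not a measurement of binding. Whether the motifs go with the direction of change was not tested.

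**Figure D2:**
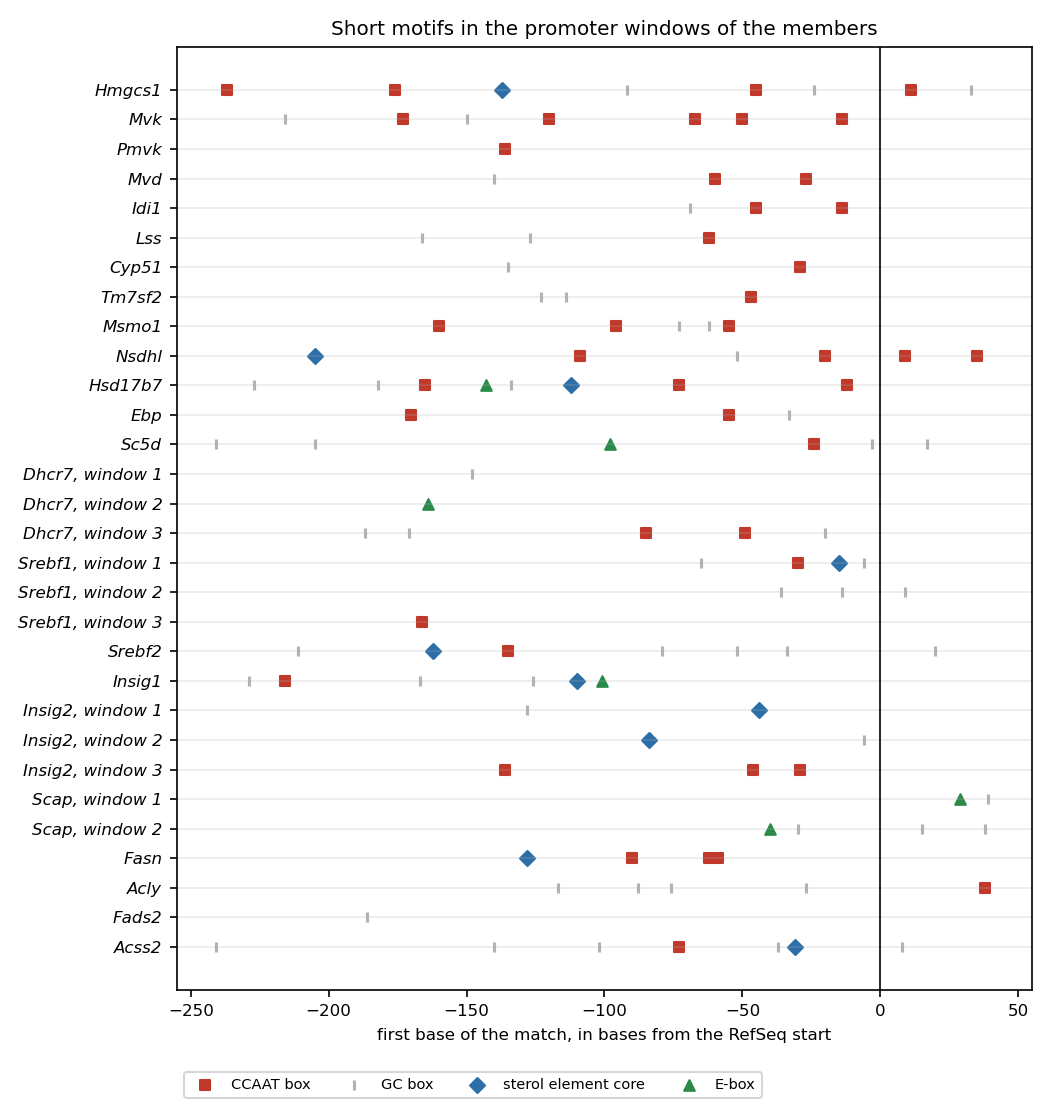
Position of each motif match in the promoter windows of the members, as the distance in bases of its first base from the RefSeq start site (x axis), 1 row per window and 1 symbol per motif, with windows that hold no match left out. CCAAT matches lie in windows of 21 members. These include Hmgcs1, with 4 matches, and also Mvk, Ebp and Fasn, which missed the threshold.

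The sterol enzymes were raised along nearly the whole pathway. Of the 17, 15 were higher in the placodes, 10 of them at least 2-fold, none was lower, and 2 missed the threshold, with a median log2 fold change of 1.09. Summed over the list, the placodes held 805 and 851 FPKM and the SMGs 399.8 and 369 FPKM. Without Hmgcs1, the most abundant, the sums were 574 and 608 against 335 and 311.

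The first steps run from acetyl-CoA to squalene, and 6 of the 7 enzymes measured there were higher in the placodes (median log2 fold change 0.99). Hmgcs1 condenses acetyl-CoA with acetoacetyl-CoA to HMG-CoA, and it had the largest rise of all members. Its level was 230.3 and 244 FPKM in the placodes against 65.0 and 58.6 FPKM in the SMGs. The means stood at a ratio of 3.84, with a log2 fold change of 1.92 (SE 0.07, adjusted p = 1.72e-06, where SE is the standard error of the log2 fold change). The placode samples lay far above the SMG samples and close to each other. The gene lies on chromosome 13 of GRCm38 from 119690379 to 119708260, and 12.1% of its exon bases overlap another annotated gene, Gm48342.

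Mevalonate is then phosphorylated by Mvk and Pmvk and decarboxylated by Mvd. Mvk stood at 17.1 and 18.8 FPKM in the placodes and at 18.2 and 20.7 FPKM in the SMGs, with a log2 fold change of -0.11 (95% interval -0.31 to 0.10, adjusted p = 0.278). Its samples overlapped, unlike those of Hmgcs1 before it and Pmvk after it. The next enzymes both rose less than 2-fold, Pmvk from a mean of 18.7 to 32.2 (log2 fold change 0.75, adjusted p = 9.97e-05) and Mvd from 14.4 to 26.3 (0.82, adjusted p = 2.68e-05).

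Idi1, which interconverts the isoprene units IPP and DMAPP, was at 43.2 and 43.7 in the placodes and at 19.9 and 16.7 in the SMGs (log2 fold change 1.21, SE 0.08, adjusted p = 3.34e-05). Fdps joins these units to farnesyl diphosphate, and its mean rose from 43.1 to 86.3 (log2 fold change 0.99, adjusted p = 2.49e-05). Fdft1, which makes squalene and so commits the pathway to sterols, was at 46.3 and 46.8 in the placodes and at 23.6 and 20.6 in the SMGs (1.04, SE 0.07, adjusted p = 3.24e-05). All 3 separated the groups by more than the distance between replicates. Of the exon bases of Fdft1, 18.3% overlap Ctsb, which was at 34.5 and 33.6 in the placodes and at 45.2 and 43.6 in the SMGs. Reads of Fdps, Idi1 and Fdft1 could be shared with other annotated genes. Of the 50-base words of their transcripts, 86.4%, 21.3% and 10.9% respectively also occur in transcripts of other genes. Fdps shared most words with Gm43738, which overlaps 26.7% of its exon bases. Gm43738 was listed at 0 and 0.168 FPKM in the placodes and at 0 in both SMG samples.

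Squalene is oxidised by Sqle and cyclised to lanosterol by Lss, and these neighbours had fold changes whose 95% intervals did not meet. The mean of Sqle was 67.4 ± 3.13 FPKM in the placodes against 58.7 ± 4.06 FPKM in the SMGs (SD, n = 2 each), with a log2 fold change of 0.20 (adjusted p = 0.0325). Lss was at 22.9 and 24.5 in the placodes and at 9.40 and 8.36 in the SMGs, with a log2 fold change of 1.32 (SE 0.08, adjusted p = 1.63e-05). Without placode replicate 1, placode replicate 2 or SMG replicate 2, the adjusted p of Sqle was 0.0854, 0.208 and 0.151, its call was lost, and in the last case its log2 fold change was 0.13. Quantile normalization with all 4 samples kept gave Sqle a log2 fold change of 0.13 and also lost its call (adjusted p = 0.117). Lss passed under each of the 16 alternatives run.

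From lanosterol onward, 7 of 8 enzymes were higher in the placodes, with a median log2 fold change of 1.13. Cyp51 removes the first methyl group of lanosterol, and it stood at 57.8 and 63.6 FPKM in the placodes and 29.4 and 26.5 in the SMGs (log2 fold change 1.09, SE 0.07, adjusted p = 2.76e-05). Tm7sf2, a sterol reductase of the next step, changed little, with means of 30.4 ± 0.348 and 26.7 ± 0.890 (SD, n = 2 each) and a log2 fold change of 0.18 (adjusted p = 0.0204). Without either placode replicate or SMG replicate 2 this call was lost (adjusted p = 0.0731 to 0.0945).

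Removal of the other methyl groups at carbon 4 is the work of Msmo1, Nsdhl and Hsd17b7, and all 3 rose more than 2-fold. Msmo1 was at 58.6 and 61.4 in the placodes and at 21.8 and 20.7 in the SMGs (log2 fold change 1.45, SE 0.05, adjusted p = 2.53e-06), the second largest change among the sterol enzymes. Nsdhl was at 22.8 and 28.7 against 11.4 and 10.9 (1.13, SE 0.11, adjusted p = 1.42e-04). Hsd17b7 was at 14.2 and 14.0 against 5.32 and 5.87 (1.20, SE 0.08, adjusted p = 2.59e-05). The placode samples of Nsdhl differed from each other more than those of its neighbours, but both stayed above the SMG samples.

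The last steps were split. Ebp, the sterol isomerase, was the least abundant member in both groups, at 4.57 and 4.53 in the placodes and 5.42 and 5.16 in the SMGs. Both placode values were below both SMG values, and the log2 fold change was -0.18 (95% interval -0.39 to 0.03, adjusted p = 0.104). The enzymes that follow it rose again. Sc5d, the lathosterol desaturase, was at 17.7 and 19.2 against 7.05 and 6.12 (log2 fold change 1.36, SE 0.09, adjusted p = 2.46e-05). Dhcr7, which reduces 7-dehydrocholesterol to cholesterol, was at 32.8 and 33.4 against 15.7 and 13.4 (1.14, SE 0.08, adjusted p = 3.28e-05).

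**Figure D3:**
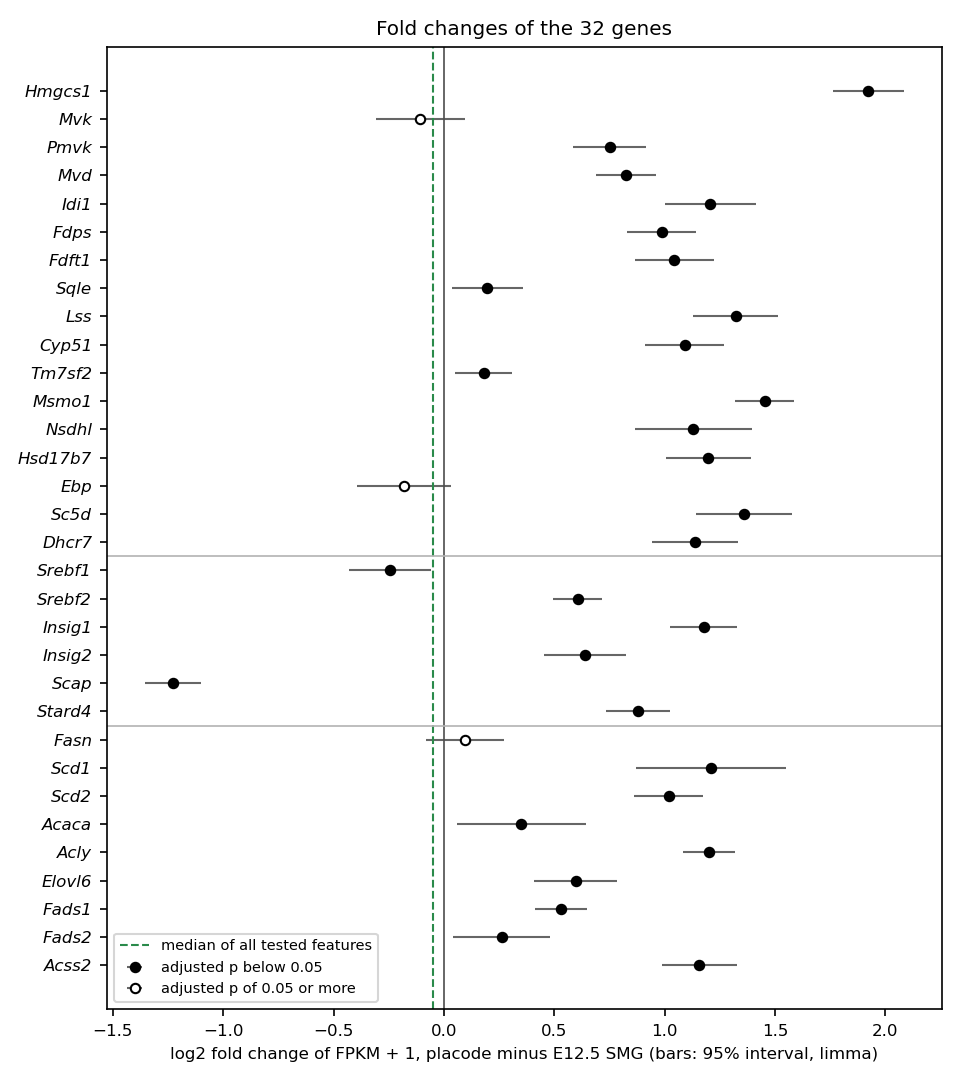
Log2 fold change of each member, placode minus SMG, on the log2(FPKM + 1) scale, with bars for the 95% interval, members grouped by role, a line at 0 and a dashed line at the median of all tested features. Filled points passed the adjusted p threshold. The intervals of Mvk, Ebp and Fasn include 0, Hmgcs1 is farthest to the right at 1.92, and Scap is farthest to the left at -1.23.

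The regulators did not move together. Of the 6 genes for sterol regulation and transfer, the placodes had 4 at a higher and 2 at a lower level, with a median log2 fold change of 0.62. The share higher was 66.7%, beside 35.7% of all tested features, and the share lower, 33.3%, was below their 40.4%. Srebf2, the SREBP that favours sterol genes, was at 113 and 114 in the placodes and at 72.9 and 75.2 in the SMGs (log2 fold change 0.61, SE 0.05, adjusted p = 4.76e-05). Srebf1, whose products favour fatty acid genes, was at 19.3 and 18.0 against 23.6 and 21.0 (-0.24, adjusted p = 0.0260). The call for Srebf1 was lost under median-ratio scaling of the samples (adjusted p = 0.0616) and without either placode replicate or SMG replicate 1 (0.0842 to 0.177). Without SMG replicate 1 its log2 fold change was -0.16.

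Scap, the escort of both SREBPs, was the member that fell most. It stood at 15.2 and 15.4 FPKM in the placodes and at 37.6 and 36.8 FPKM in the SMGs. The means had a ratio of 0.412, with a log2 fold change of -1.23 (SE 0.05, adjusted p = 4.12e-06). The replicates lay within 1 FPKM of each other in both groups. The gene lies on chromosome 9 from 110333288 to 110384950, and 13.2% of its exon bases overlap 5830462I19Rik.

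The INSIG genes, whose products retain SCAP and SREBP in the endoplasmic reticulum, were both higher in the placodes. Insig1, itself a well known SREBP target, was at 38.8 and 42.5 against 17.5 and 17.3 (log2 fold change 1.18, SE 0.06, adjusted p = 1.00e-05). Insig2 was at 13.5 and 14.7 against 8.90 and 8.42 (0.64, SE 0.08, adjusted p = 3.74e-04). Stard4, a carrier of cholesterol through the cytosol, had means of 20.6 and 10.7 (0.88, adjusted p = 2.74e-05).

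Genes that cut or carry SREBP, or turn over INSIG, were mixed. Of 10 genes for SREBP processing and the turnover of INSIG, 7 passed the threshold, 2 higher and 5 lower (Mbtps1, Erlin1, Sec23a, Sec24c and Sec24d), with a median log2 fold change of -0.14. The share past the threshold, 70%, was below the 76.2% of all features, and the share lower, 50%, stood beside 40.4%. Without placode replicate 2 these counts were 0 and 3, without placode replicate 1 or SMG replicate 2 there was 1 higher, and without SMG replicate 1 there were 3 lower. The highest change was that of Mbtps2, the site-2 protease, with means of 13.1 and 10.1 (log2 fold change 0.34, adjusted p = 0.00605, or 0.0636 without placode replicate 2). The lowest was that of Sec24d, a cargo subunit of the COPII coat that packs vesicles at the endoplasmic reticulum, with values of 7.46 and 7.77 in the placodes and 31.1 and 34.4 in the SMGs (-1.97, SE 0.07, adjusted p = 2.25e-06). Mbtps1, the site-1 protease, named after its values were seen, had means of 49.4 and 98.0 (-0.97, adjusted p = 6.02e-06). Erlin1, part of a complex that takes part in INSIG degradation and also named after its values were seen, had means of 4.15 and 16.7 (-1.79, adjusted p = 4.21e-06).

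Of the 9 enzymes of fatty acid synthesis, 8 were higher in the placodes, 4 of them at least 2-fold, and none was lower, with a median log2 fold change of 0.60. The list summed to 759 and 796 FPKM in the placodes and to 444 and 412 FPKM in the SMGs. Scd2 alone made up much of both sums, and without it they were 387 and 407 against 248 and 233.

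Acetyl-CoA for synthesis is supplied by Acly, which cleaves citrate, and by Acss2, which activates acetate. Acly was at 156 and 162 in the placodes and at 69.7 and 67.3 in the SMGs (log2 fold change 1.20, SE 0.05, adjusted p = 3.22e-06). Acss2 was at 16.7 and 17.0 against 6.80 and 7.24 (1.16, SE 0.07, adjusted p = 1.75e-05). Both rose more than 2-fold with little distance between replicates. Of the exon bases of Acss2, 9.12% overlap Acss2os, Ggt7 and Gss. Ggt7 was at 10.49 and 11.46 FPKM in the placodes and at 1.66 and 1.38 FPKM in the SMGs. Gss went the other way, at 4.35 and 5.25 in the placodes and at 10.73 and 10.97 in the SMGs. The part of this overlap in the Acss2 values was not tested.

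The enzymes that use this acetyl-CoA to build the chain had smaller fold changes. Acaca, acetyl-CoA carboxylase, had means of 16.9 ± 1.41 in the placodes and 13.1 ± 2.22 in the SMGs (SD, n = 2 each), with a log2 fold change of 0.35 (adjusted p = 0.0355) that lost its call without either placode replicate or SMG replicate 1 (adjusted p = 0.118 to 0.261). Without SMG replicate 1 the log2 fold change itself was 0.19. Of its 50-base words, 52.6% occur in transcripts of other genes. Fasn, fatty acid synthase, was at 37.0 and 41.9 in the placodes and at 37.7 and 35.8 in the SMGs. Its samples overlapped, and the log2 fold change was 0.10 (95% interval -0.08 to 0.27, adjusted p = 0.260). Elovl6, which extends the palmitate made by Fasn, was higher, with means of 16.2 and 10.4 (0.60, adjusted p = 5.42e-04).

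The stearoyl-CoA desaturases, which place the first double bond, both rose. Scd2 was the most abundant member in both groups, at 373 and 389 in the placodes and 196 and 179 in the SMGs (log2 fold change 1.02, SE 0.06, adjusted p = 2.04e-05). Scd1 was at 19.9 and 22.3 against 9.98 and 7.31 (1.21, SE 0.14, adjusted p = 3.17e-04). The SMG samples of Scd1 differed more from each other than those of most members, which its SE reflects. The 2 genes share 4.66% of the 50-base words of Scd1, so a small part of their reads could be exchanged.

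The desaturases of polyunsaturated fatty acids rose by less than 2-fold. Fads1 was at 66.4 and 68.5 against 47.2 and 45.5 (log2 fold change 0.53, SE 0.05, adjusted p = 1.12e-04). Fads2 was at 58.0 and 61.3 against 54.3 and 45.3 (0.26, SE 0.09, adjusted p = 0.0356), and this call was lost without either placode replicate or SMG replicate 2 (adjusted p = 0.116 to 0.241). Without SMG replicate 2 its log2 fold change was 0.13. Quantile normalization with all 4 samples kept gave 0.18 and also lost the call (adjusted p = 0.123).

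The balance within the paralogue pairs was compared inside each sample. With 2 samples against 2, the exact permutation test cannot go below p = 0.333, and each of the 4 pairs reached that value (two-sided), as each of them had non-overlapping groups. Srebf1 stood at 0.172 and 0.158 times Srebf2 in the placodes and at 0.324 and 0.279 times in the SMGs, a difference of -0.87 in the log2 ratio. Insig1 stood at 2.88 and 2.90 times Insig2 in the placodes and at 1.96 and 2.06 times in the SMGs (0.52). In these pairs the groups lay farther apart than the replicates of either group. Scd1 to Scd2 stood at 0.0535 and 0.0574 against 0.0510 and 0.0408 (0.28), and Fads1 to Fads2 at 1.14 and 1.12 against 0.870 and 1.01 (0.27). These last 2 differences turned on the SMG samples, at 0.44 and 0.12 for Scd1 to Scd2 without SMG replicate 1 or 2, and at 0.17 for Fads1 to Fads2 without SMG replicate 1.

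**Figure D4:**
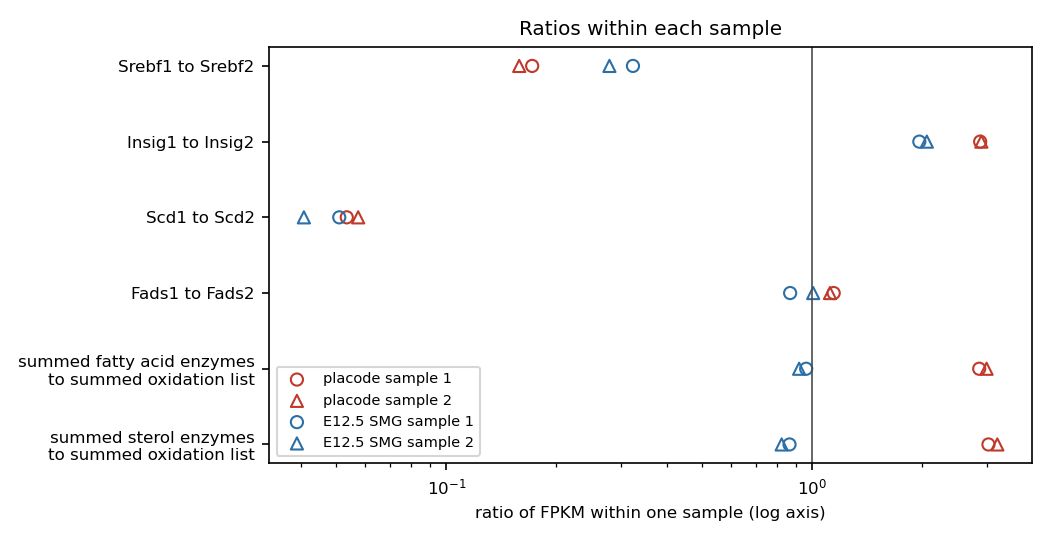
Within-sample FPKM ratios of the paralogue pairs and of the summed synthesis lists to the summed oxidation list, 1 point per sample on a log axis. For Srebf1 to Srebf2 the placode points lie at 0.158 and 0.172 and the SMG points at 0.279 and 0.324, and the ratio of fatty acid synthesis to oxidation lies at 2.86 and 2.99 in the placodes and below 1 in both SMG samples.

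The levels of the members kept much of their order between the groups, with a Spearman correlation of their mean log2(FPKM + 1) of 0.815 over the 32 members, given as a description. The highest member was Scd2 in both groups, with means of 381 ± 11.6 and 187 ± 11.8 (SD, n = 2 each), and the lowest was Ebp, with 4.55 ± 0.0268 and 5.29 ± 0.180. Hmgcs1 was second in the placodes, at 237 ± 9.60.

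Genes next to these pathways were examined to see where the rise ended. Fatty acid oxidation, which breaks down what these enzymes make, was split. Of the 15 oxidation genes tested out of 16 listed, 10 were lower in the placodes, 4 of them at least 2-fold, none was higher, and the median log2 fold change was -0.56. The share past the threshold, 66.7%, was below the 76.2% of all features, and all of it was lower, beside 40.4% lower over all features. The 5 genes that missed the threshold had log2 fold changes of 0.05 to 0.18 and were named after their values were seen. They were Cpt1a, Cpt2 and Slc25a20 of the carnitine shuttle, Cpt1c, a paralogue of Cpt1a, and the dehydrogenase Acads. Without SMG replicate 2 the log2 fold changes of Cpt1c and Slc25a20 were -0.01 and -0.04. That of Cpt1c was -0.03 without placode replicate 2. With an equal sum per sample or median-ratio scaling, Cpt1a, the gate of fatty acid entry into mitochondria, was called higher (log2 fold change 0.20 and 0.19). Hadhb, the thiolase subunit of the mitochondrial trifunctional protein, had the lowest change, at 11.6 and 12.2 in the placodes and 42.9 and 40.4 in the SMGs (log2 fold change -1.73, SE 0.06, adjusted p = 1.92e-06). The other 3, named after their values were seen, were Acadl (-1.33), Hadh (-1.30) and Hadha (-1.12). The oxidation list summed to 266 and 266 FPKM in the placodes and to 462 and 448 FPKM in the SMGs. Summed fatty acid synthesis genes stood at 2.86 and 2.99 times this in the placodes and at 0.962 and 0.920 times in the SMGs, and summed sterol enzymes at 3.03 and 3.20 against 0.866 and 0.825 times.

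Other genes of fatty acid elongation, activation and precursor supply were mostly higher. Of 18 tested out of 20 listed, 12 were higher, 6 of them at least 2-fold, and 3 were lower (Elovl1, Acsl5 and Mcat), with a median log2 fold change of 0.50. The share higher was 66.7%, beside 35.7% of all features. Acsl6, an acyl-CoA synthetase known from brain, had the highest change, at 7.64 and 8.99 in the placodes and 0.510 and 0.839 in the SMGs (log2 fold change 2.48, SE 0.14, adjusted p = 1.32e-05). Elovl1, an elongase of very long chains, had the lowest, with means of 4.72 and 16.0 (-1.57, adjusted p = 1.11e-05). Elovl4 and Slc25a1, named after their values were seen, were also far higher in the placodes. Elovl4, which extends very long polyunsaturated chains, had means of 17.0 and 2.91 (2.21, adjusted p = 3.18e-06), and Slc25a1, the carrier that brings citrate out of mitochondria to Acly, had means of 91.0 and 21.7 (2.03, adjusted p = 5.05e-06).

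A further list held the branches that leave the mevalonate pathway before squalene, together with Acat2, which lies upstream of Hmgcs1. Of these 12 genes, 2 were higher (Acat2 and Ggps1) and 5 were lower (Pdss1, Dhdds, Fnta, Pggt1b and Icmt, or 3 of them without placode replicate 2), with a median log2 fold change of -0.14. The share lower, 41.7%, was near the 40.4% of all features, and the share past the threshold, 58.3%, was below the 76.2% of all features. Acat2 makes the acetoacetyl-CoA that Hmgcs1 uses, so that Ggps1 was the only gene of the branches called higher. Acat2 was named after its values were seen, with means of 101 and 63.4. Ggps1, which makes geranylgeranyl diphosphate, was highest, with means of 20.5 and 11.2 (log2 fold change 0.82, adjusted p = 4.35e-05). Icmt, which methylates prenylated proteins, was lowest, with means of 10.5 and 16.3 (-0.59, adjusted p = 9.64e-04).

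**Figure D5:**
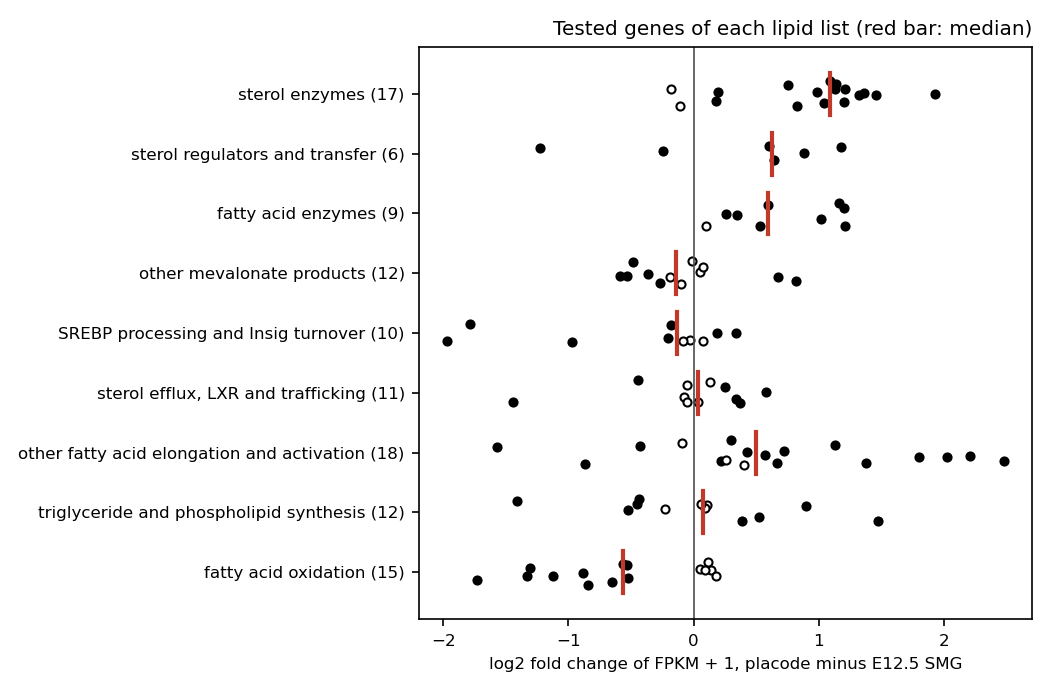
Log2 fold change, placode minus SMG, of each tested gene of the 3 member groups and 6 neighbouring lipid lists, 1 point per gene, filled where the adjusted p was below 0.05, with a red bar at the median. The medians of sterol enzymes, regulators and fatty acid enzymes lie at 1.09, 0.62 and 0.60, and that of fatty acid oxidation lies at -0.56.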

How the data were processed

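RNA of 2 PSC-derived SG placode samples and 2 E12.5 SMG samples was sequenced as paired-end reads (NEBNext Ultra kit, Illumina Novaseq). The authors mapped the reads with HISAT2 and deposited FPKM per gene. The processing notes name GRCm38 and GRCh38. The HISAT2 version, annotation, strandedness and FPKM program are not given in the sources used here, so reads of overlapping genes cannot be told apart. The deposited FPKM values above 0 are almost never whole numbers (0.0028% are) and no steps of single reads were seen in them, so depth is unknown and no counting intervals are given.

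Samples were grouped by their titles. Values were transformed as log2(FPKM + 1), and the 13193 features with a mean FPKM of at least 1 over the 4 samples entered the fit in limma (version 3.58.1, R 4.3.3, lmFit and eBayes with trend, group as the only term, two-sided). Benjamini-Hochberg adjustment covered all of these features, and a call is an adjusted p below 0.05. Fold changes on this scale understate the change of low genes. Ratios of means are of FPKM. Paralogue ratios were tested by exact permutation. The procedure was also run on simulated data in which 200 features were changed. That is a far smaller share than the 76.2% of features called here, so the run does not test the calls in this setting.

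The members and all lists (6 neighbouring lipid lists and 9 marker lists) were chosen with earlier results of these data known. Per-sample values are given for members past a 2-fold change, the highest and lowest member, the 4 paralogue pairs and members that missed the threshold, with the highest and lowest called gene of each neighbouring list; other genes of these lists were named after their values were seen. Positions, exon overlaps and shared 50-base words are from GENCODE M21 (GRCm38), and promoter windows are from RefSeq (GRCm38.p6). Motifs were searched on both strands, 1 match per gene sufficing. Figures were drawn with matplotlib 3.10.9. Alternatives were other pseudocounts, minimum FPKM values, scalings of the samples, eBayes settings, a replicate block, leaving out assembled loci, and leaving out each replicate.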

Additional observations from a re-analysis of the deposited data

How the results depend on the processing

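No member changed direction under the 16 alternatives run. Between 24 and 29 members passed the threshold, 23 to 27 of them higher and 13 to 16 higher by at least 2-fold. The fewest, 24, were found by eBayes without trend and without placode replicate 1 or 2, and 25 were found with no minimum FPKM. Sqle, Tm7sf2, Srebf1, Acaca and Fads2 were the members that lost their call under some alternative, and the cause was not tested. All of them lost it under eBayes without trend, with all 4 samples kept (adjusted p = 0.0502 to 0.0783). As Srebf1 lost its call, 1 member and 1 regulator were lower with no minimum FPKM (adjusted p = 0.0512), with median-ratio scaling and with eBayes without trend (0.0502). The median log2 fold change of the members was 0.99 with a minimum mean FPKM of 5, with an equal sum per sample and with median-ratio scaling. A minimum of 5 left 2 triglyceride and phospholipid genes lower, for which fewer genes were tested. An equal sum per sample and median-ratio scaling each called 1 oxidation gene, Cpt1a, higher. Quantile normalization gave an Insig1 to Insig2 difference of 0.47.

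With each replicate left out in turn, 1 to 2 members and 1 to 2 regulators were lower. Of the SREBP processing genes, 0 to 2 were higher and 3 to 5 lower. Only 2 to 3 efflux genes were higher, below the 4 of the main fit, and 3 to 5 genes for other mevalonate products were lower. The lowest of each came without placode replicate 2. The sample left alone in its group is then assumed to vary like the other group. Same-numbered samples did not deviate together over the tested features (r = -0.03), and the main fit did not treat them as pairs. With 2 samples per group this value cannot exclude a batch shared by same-numbered samples. A replicate block gave 29 members past the threshold, 27 higher and 2 lower, and changed no call of a member. The groups of 2 samples and the unknown depth limit all values.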

Other observations

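Lists for the storage and export of lipids showed no common direction. Of 12 genes for triglyceride and phospholipid synthesis, 4 were higher (Agpat1, Lpin1, Pcyt1a and Cds2) and 4 were lower (Agpat2, Lpin2, Chka and Cds1), with a median log2 fold change of 0.07. Both shares, 33.3%, lay near or below those of all tested features, of which 35.7% were higher and 40.4% lower. Lpin1, a phosphatidate phosphatase, was the highest, at 9.07 and 10.1 in the placodes and 2.72 and 2.89 in the SMGs (log2 fold change 1.48, SE 0.10, adjusted p = 2.34e-05). Agpat2, which makes phosphatidic acid and is needed in fat tissue, was the lowest, at 1.63 and 1.31 against 5.34 and 5.72 (-1.41, SE 0.11, adjusted p = 6.07e-05).

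Of 11 tested genes of sterol efflux, LXR signalling and trafficking, out of 12 listed, 4 were higher (Npc2, Scarb1, Soat1 and Stard3) and 2 were lower (Mylip and Lrp1), with a median log2 fold change of 0.03. The share higher, 36.4%, was near the 35.7% of all tested features, and the share lower was 18.2%, beside 40.4%. The higher count was 2 without placode replicate 1 or 2. Scarb1, a receptor for high density lipoprotein, was the highest, at 16.9 and 16.5 in the placodes and 13.6 and 8.67 in the SMGs (log2 fold change 0.57, SE 0.18, adjusted p = 0.0279). Its log2 fold change was 0.87 without SMG replicate 1 and 0.27 without SMG replicate 2, where Npc2, a carrier of cholesterol out of lysosomes, was above it at 0.36. The call for Scarb1 was lost without placode replicate 1 or 2 (adjusted p = 0.205 and 0.187) and with no minimum FPKM (0.0773). Mylip, a ubiquitin ligase induced by LXR, was the lowest, at 2.58 and 3.11 against 10.6 and 8.37 (-1.44, SE 0.13, adjusted p = 1.20e-04). Nr1h3, which encodes LXRα, had a mean FPKM below 1 and was not tested.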
